A study of Homo sapiens with 12 samples.

Results

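The transcripts described here carried peaks of eIF3a and eIF3b but none of METTL16 in HepG2 cells, a line derived from human liver cancer. The genes were selected on the deposited peak lists themselves, by gene name: a gene had to be named in all 4 eIF3a and eIF3b lists and in neither METTL16 list. This rule gave 446 of the 10830 genes with a peak in any list (4.12%), and these genes held 4195 of the 75513 peaks in the 4 eIF3a and eIF3b lists and of the 101848 peaks in all 6. The presence of an eIF3 peak and the lack of a METTL16 peak are therefore not findings, and a gene missing from a METTL16 list is one with no peak past the authors' threshold there, not one shown to be unbound.

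RNA immunoprecipitation followed by sequencing (RIP-seq) pulls down a protein with an antibody and compares its RNA with the input RNA. All 12 samples came from HepG2 lines that stably overexpressed 3XFlag-METTL16, 3XFlag-eIF3a or 3XFlag-eIF3b from viral vectors, with no other treatment, and per the study's methods the cells were cross-linked with ultraviolet light. Each protein had 2 RIP samples, called biological replicates by the study, and 2 inputs. The labels name a Flag antibody in the METTL16 and eIF3b pull-downs but one raised to eIF3a itself in the eIF3a pull-downs, although every deposited list, those of eIF3a included, is named as Flag. By the labels, a difference of eIF3a from the others cannot be told apart from one of antibody. No control pull-down enters these values, and the lists hold no read numbers, so the depth behind a peak is unknown. Of 12 hepatocyte markers, 10 had a peak in some list and 4, SERPINA1 among them, in all 6. APOH and TTR had no peak, and no marker was among the 446 genes.

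eIF3 is the largest of the translation initiation factors. It binds the small ribosomal subunit, holds other factors there while the start codon is sought, and can also contact particular mRNAs directly. eIF3a is the long scaffold subunit, and eIF3b carries an RNA recognition motif and a propeller domain that docks on the ribosome. METTL16 is a methyltransferase that places m6A, a methyl mark on adenosine, on the spliceosomal U6 RNA and on the MAT2A mRNA, and it is also found in the cytoplasm.

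The sequence under the peaks is shown for 5 genes in which the 4 lists met over a long coding stretch. These were the longest such stretches within a single exon among 20 genes ranked by score or fold. They are written 5′ to 3′ on the transcript strand of GRCh38, and capitals mark bases under a peak in all 4 lists. CEP95 (centrosome), exon 15 of 20, chr17:64532839-64533008, plus strand, is the whole coding stretch of 170 bases. STRN3 (a striatin of a protein phosphatase complex), exon 1 of 18, chr14:31025913-31026111, minus strand, holds a shared stretch of 181 bases. ANKRD36 (an ankyrin repeat gene), exon 71 of 76, chr2:97245417-97245616, plus strand, is the middle of 210 shared bases. ZNF518A (a zinc finger protein), exon 6 of 6, chr10:96157368-96157567, plus strand, is the middle of 389 shared bases, and MYH3 (embryonic skeletal myosin heavy chain), exon 22 of 41, chr17:10640036-10640234, minus strand, holds 181.
CEP95: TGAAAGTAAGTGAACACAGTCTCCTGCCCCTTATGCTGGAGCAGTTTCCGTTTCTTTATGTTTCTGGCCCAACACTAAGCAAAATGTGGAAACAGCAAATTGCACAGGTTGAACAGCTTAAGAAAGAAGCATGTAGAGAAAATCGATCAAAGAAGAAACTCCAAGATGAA
STRN3: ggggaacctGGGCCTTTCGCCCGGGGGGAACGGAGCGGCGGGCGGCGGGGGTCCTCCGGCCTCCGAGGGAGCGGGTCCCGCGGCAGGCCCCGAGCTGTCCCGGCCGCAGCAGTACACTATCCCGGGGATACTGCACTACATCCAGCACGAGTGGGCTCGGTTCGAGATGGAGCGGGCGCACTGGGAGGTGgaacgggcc
ANKRD36: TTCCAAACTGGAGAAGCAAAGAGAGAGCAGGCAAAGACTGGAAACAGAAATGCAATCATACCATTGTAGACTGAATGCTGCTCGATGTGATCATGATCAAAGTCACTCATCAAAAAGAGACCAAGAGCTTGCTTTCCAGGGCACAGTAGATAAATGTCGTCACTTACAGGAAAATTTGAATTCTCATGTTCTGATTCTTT
ZNF518A: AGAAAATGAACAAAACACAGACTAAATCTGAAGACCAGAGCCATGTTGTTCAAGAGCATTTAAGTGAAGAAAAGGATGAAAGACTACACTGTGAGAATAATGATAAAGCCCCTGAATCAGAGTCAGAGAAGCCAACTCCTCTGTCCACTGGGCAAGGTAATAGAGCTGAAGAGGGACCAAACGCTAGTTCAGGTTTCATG
MYH3: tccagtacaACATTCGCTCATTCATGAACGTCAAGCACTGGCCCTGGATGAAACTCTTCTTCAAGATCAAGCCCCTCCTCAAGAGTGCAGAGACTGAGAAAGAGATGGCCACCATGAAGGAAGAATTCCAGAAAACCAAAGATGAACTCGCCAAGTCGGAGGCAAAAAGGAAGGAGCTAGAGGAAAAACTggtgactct
The GC content of these runs was 40.6% for CEP95, 40.0% for ANKRD36, 42.0% for ZNF518A and 47.2% for MYH3. STRN3 stood apart at 73.4%. Its stretch lay in the first exon, and its coding sequence as a whole had 44.7% GC.

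The peaks on the 446 genes lay mainly in coding sequence and were poor in GC. The 4 lists held 1250 peaks (eIF3a replicate 1), 870 (eIF3a replicate 2), 977 (eIF3b replicate 1) and 1098 (eIF3b replicate 2) on these genes. A gene carried 1.95 to 2.80 peaks per list on average, and 42 genes carried exactly 1 peak in every list. The largest number, 48 over the 4 lists, was on DNAH1, an axonemal dynein heavy chain with 78 exons. Of the 446 genes, 444 were protein coding with an annotated canonical coding transcript.

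The region of a peak was read at its exonic centre. In the same order of lists, the centre lay in coding sequence for 64.5%, 76.2%, 70.9% and 67.4% of the peaks on these genes. For the 2730 genes with peaks in all 6 lists, the corresponding shares were 55.0%, 52.6%, 57.5% and 55.5%. The groups did not overlap, and the difference was 14.6 percentage points ± 6.23 (SD, n = 4 lists), from 9.49 in eIF3a replicate 1 to 23.6 in eIF3a replicate 2. The 3′ UTR held 30.3%, 19.5%, 20.8% and 27.3% of the centres, against 40.4%, 43.6%, 35.5% and 38.8% for the genes in all 6 lists, a difference of -15.1 points ± 6.34. The 5′ UTR held 3.91% to 7.18%, against 3.35% to 6.50%. Both the coding and the 3′ UTR difference had the same direction in 4 of 4 lists, with a p of 0.125 in an exact two-sided permutation test over the signs of the 4 lists, the smallest that 4 lists allow, and also 0.125 after Benjamini-Hochberg adjustment over 3 measures. These are the lists that selected the genes, so the tests describe the lists and are not independent support.

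**Figure D1:**
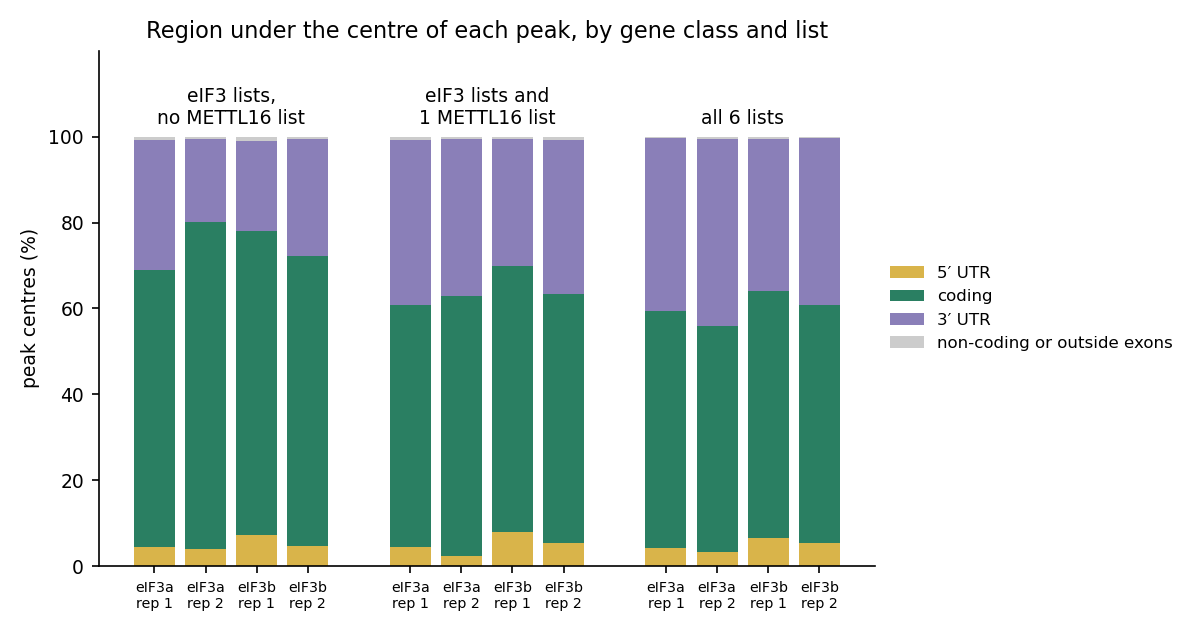
Share of peak centres (%, vertical axis, from 0) in the 5′ UTR, the coding sequence, the 3′ UTR and non-coding or no exons, for each eIF3a and eIF3b list, in genes with no METTL16 list, 1 METTL16 list or all 6 lists. The coding part takes 64.5% to 76.2% of each bar in the first block and 52.6% to 57.5% in the last.

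The make-up of the transcripts did not differ in the same way. Coding bases were 49.4% of all canonical transcript bases of the 446 genes and 48.8% of those of the genes in all 6 lists. The 3′ UTR took 46.6% and 46.7%. The median coding sequence had 2032 bases against 1899, and the median transcript had 13 exons against 12. The 809 genes that had eIF3a and eIF3b peaks in every list and a METTL16 peak in 1 list had coding shares of 56.2%, 60.6%, 61.9% and 57.8%, between the other classes in each list. Over all peaks of the 4 lists the coding shares were 56.6%, 57.8%, 60.7% and 57.5%. All peaks of the METTL16 lists had 60.9% and 68.5% coding and 31.7% and 23.9% 3′ UTR centres. A high coding share was thus not confined to peaks on the 446 genes.

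Along the coding sequence, the peaks on the 446 genes were spread evenly. With the coding sequence cut into 3 equal parts, the first held 33.7% to 34.6% of the coding centres, the middle 30.5% to 35.1% and the last 31.3% to 35.8%. For genes in all 6 lists, the last part held 35.4% to 36.9% and the first 30.0% to 32.5%. The median position was 48.5% to 51.2% of the way along, against 51.6% to 52.9%.

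**Figure D2:**
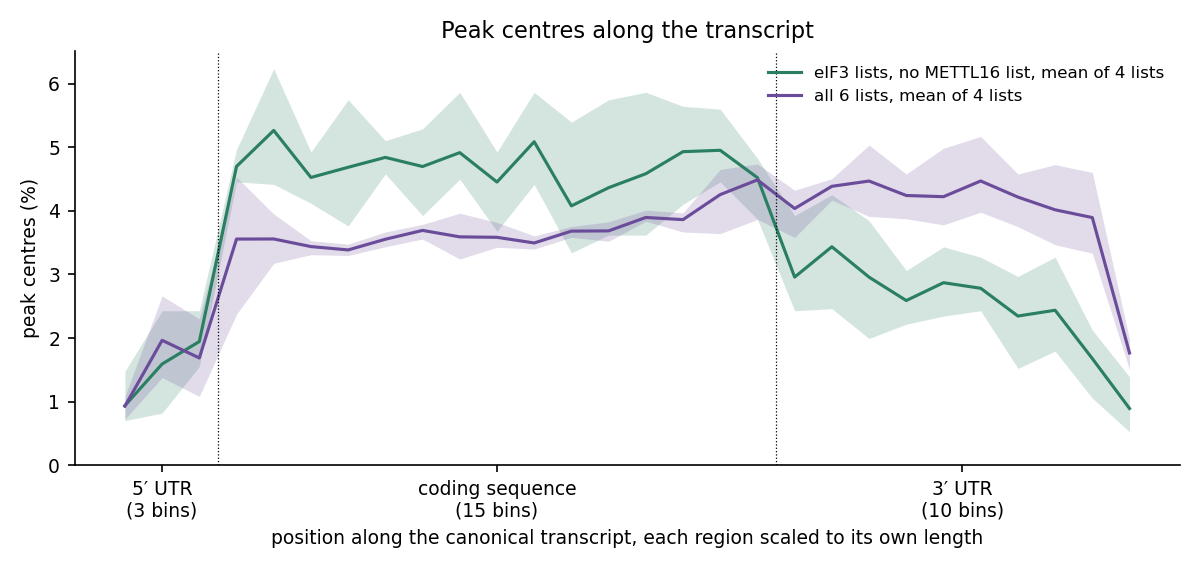
Share of peak centres (%, vertical axis) in equal bins along the canonical transcript, with the 5′ UTR, coding sequence and 3′ UTR each scaled to its own length (dotted lines). Lines are means over the 4 eIF3a and eIF3b lists and bands their full range, so a reader sees a level run across the coding sequence in the genes without METTL16 and a lower one in the 3′ UTR.

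The peaks also had lower GC content. The mean GC content of the peaks on the 446 genes was 47.1% in eIF3a replicate 1, 48.7% in eIF3a replicate 2, 52.2% in eIF3b replicate 1 and 47.9% in eIF3b replicate 2. In genes with peaks in all 6 lists it was 56.1%, 55.5%, 58.5% and 56.2%, a difference of -7.61 points ± 1.31 (SD, n = 4 lists, 4 of 4 in this direction, exact permutation p = 0.125, the smallest possible). The same genes were compared in each list, and their coding sequences differed in GC content, as given below. The 4 lists are therefore not independent here, and the shared direction and the test describe the lists without being independent support. Coding peaks alone differed by -9.18 points and 3′ UTR peaks alone by -5.90. eIF3b replicate 1 was the highest of the 4 lists in both classes. The genes with 1 METTL16 list were close to the 446, at 48.7% to 53.4%, and the difference from these was -1.05 points ± 0.761 and ran this way in 3 of 4 lists. The METTL16 lists, which took part in choosing the genes by what they lacked, were richer in GC over all their peaks, at 59.0% and 60.8%, than the eIF3a lists (53.7% and 53.1%) and eIF3b replicate 2 (54.1%), while eIF3b replicate 1 had 58.1%.

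The transcripts themselves differed in base composition. The median GC content of the coding sequence was 46.3% for the 446 genes, 48.4% for genes with 1 METTL16 list and 56.8% for genes in all 6 lists. Of 444 coding sequences, 341 lay below the median of all genes with a peak (53.1%), and 60.1% had under 50% GC at the last base of their codons, against 23.8% of genes in all 6 lists. Within a transcript, peaks on the 446 genes had 2.68 to 5.62 points more GC than their own canonical transcript, and peaks on genes in all 6 lists 2.52 to 4.71 points more. Coding peaks were within 0.641 to 2.10 points of their coding sequence, and within 0.704 to 1.98 points for genes in all 6 lists. Both pairs of ranges overlap. How far GC content itself affected the pull-down, library preparation or peak calling was not tested.

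**Figure D3:**
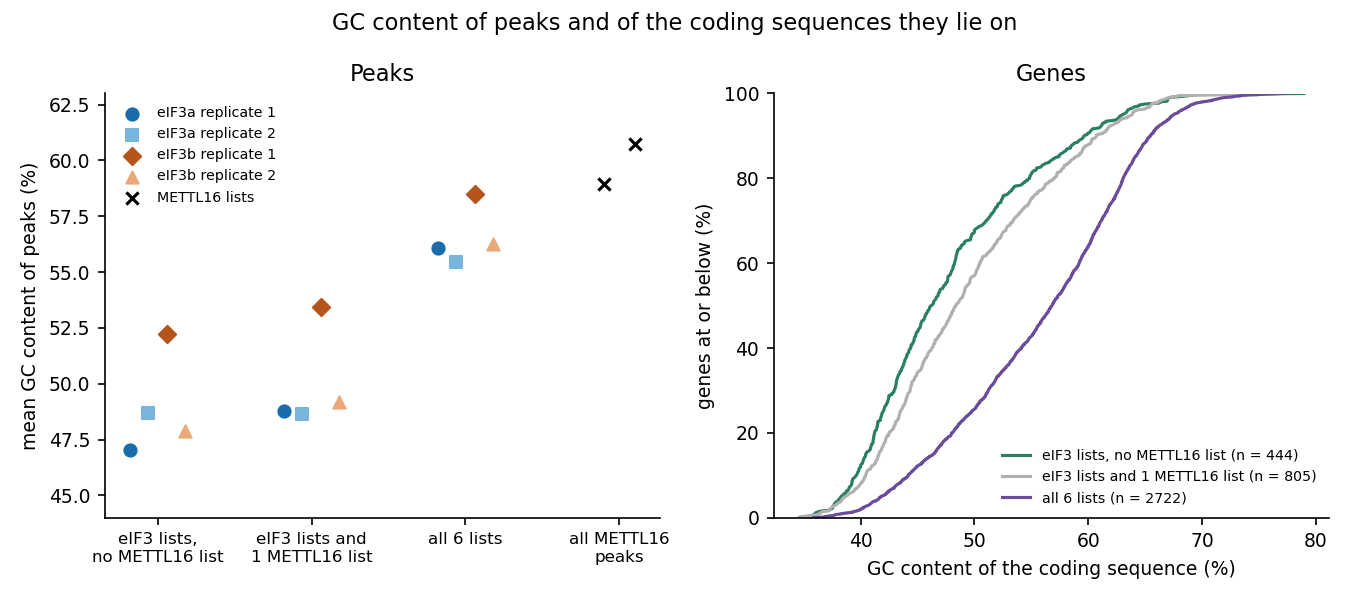
Left, mean GC content (%, axis not from 0) of the peaks of each list in the 3 gene classes, and of all METTL16 peaks. Right, cumulative share of genes (%) by GC content of the canonical coding sequence (%). The 446 genes sit at 47.1% to 52.2% by peak and left of the genes in all 6 lists by coding sequence, close to the genes with 1 METTL16 list.

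The peaks were narrower and scored lower than those on genes in all 6 lists, while the median fold of a peak over input was somewhat higher. Their median exonic width was 151, 180, 180 and 180 bases, against 210 to 241 for genes in all 6 lists, while genes with 1 METTL16 list had 180 to 181. The score, minus the log10 of the deposited p-value, had a median over each gene's best peak of 5.49, 6.38, 6.14 and 5.64, against 15.4, 13.9, 35.2 and 18.2. The median fold of a peak, the deposited ratio of RIP to input, was 3.65, 3.50, 3.74 and 3.82, against 2.53 to 3.25. For the largest fold on each gene the medians were 4.96, 3.965, 4.28 and 5.395, against 4.25, 3.34, 6.305 and 4.7, so eIF3b replicate 1 went the other way. A largest fold of at least 4 in each of the 4 lists was reached by 125 of the 446 genes (28.0%), against 27.9% of all 3985 genes in the 4 lists, so in this respect the genes were like the rest. Of 6 measures, only the median peak fold separated the eIF3a from the eIF3b lists on these genes, with means of 3.58 and 3.78. Its exact permutation p was 0.333, the smallest that 2 lists against 2 allow.

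The coding and GC differences were also present within ranges of the lowest score. The top range has no upper bound, so its genes are not matched in score. Over the 4 eIF3a and eIF3b lists, the 446 genes had lowest scores up to 19.4. EIF3A, which had peaks in all 6 lists and was overexpressed in the eIF3a samples, had a lowest score of 137 over the same 4. In the 28 genes whose lowest score over the 4 lists was at least 8, 82.8% of the peaks were coding and the GC content was 45.0%, against 53.8% and 56.0% for the 1418 such genes in all 6 lists. In the 116 genes with a lowest score under 3, the values were 65.5% and 48.9%, against 56.3% and 58.4%. The coding difference ran from 9.18 points ± 10.8 (SD, n = 4 lists) at the lowest scores to 29.0 ± 6.29 at the highest, and the GC difference from -7.35 to -11.1 points over the 4 score ranges, which were chosen after the lists had been examined.

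The 4 lists agreed on the gene by construction, but less on the position. Of 576985 exonic bases under a peak on 445 of the 446 genes, 60.2% lay under a peak in 1 list, 22.3% in 2, 12.2% in 3 and 5.30% in all 4. For genes in all 6 lists these shares were 37.9%, 21.7%, 19.6% and 20.8%. A base under all 4 lists was found in 180 of 445 genes (40.4%), below the 72.8% of all genes in the 4 lists, and the genes also had lower scores, with a median lowest score of 3.60 against 8.42 in genes in all 6 lists. At a lowest score under 3, 13.8% of the 446 genes had a shared base, against 33.3% of genes in all 6 lists, and at 8 or more 89.3% against 97.4%. Genes with 1 METTL16 list were nearer to the 446 in these ranges, with 17.4% under 3 and 91.4% at 8 or more. They had 41.8% against 39.4% from 3 to 5, and 75.4% against 68.6% from 5 to 8, where genes in all 6 lists had 83.6%. Some eIF3a peak met some eIF3b peak on 418 of 445 genes (93.9%), against 97.4% of genes with 1 METTL16 list and 99.3% of genes in all 6. The replicates of eIF3a met on 299 (67.2%, against 77.7% and 91.3%) and those of eIF3b on 338 (76.0%, against 88.1% and 97.1%). The first count has 4 pairs of lists to meet in, and each of the others has 1.

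The Jaccard index, the shared bases over all bases under either list, was 0.259 and 0.321 for eIF3a replicate 1 with eIF3b replicates 1 and 2, and 0.161 and 0.172 for eIF3a replicate 2 with the same lists. The mean was 0.228 ± 0.0756 (SD, n = 4 pairs), against 0.439 in genes in all 6 lists. The pairs share lists, so they are not independent and the SD is not a spread of replicates. The replicates of eIF3a gave 0.185 and those of eIF3b 0.296. In all 3 gene classes eIF3a replicate 1 shared more bases with either eIF3b list than with its own replicate, with 0.488 and 0.537 against 0.376 in genes in all 6 lists, so this is not particular to the 446 genes. eIF3a replicate 2 has the shortest list of all (12921 peaks), and without it the mean between the proteins was 0.290. On the 446 genes it still covered 250498 bases, against 254463 in eIF3a replicate 1 and 204567 and 230907 in the eIF3b lists.

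**Figure D4:**
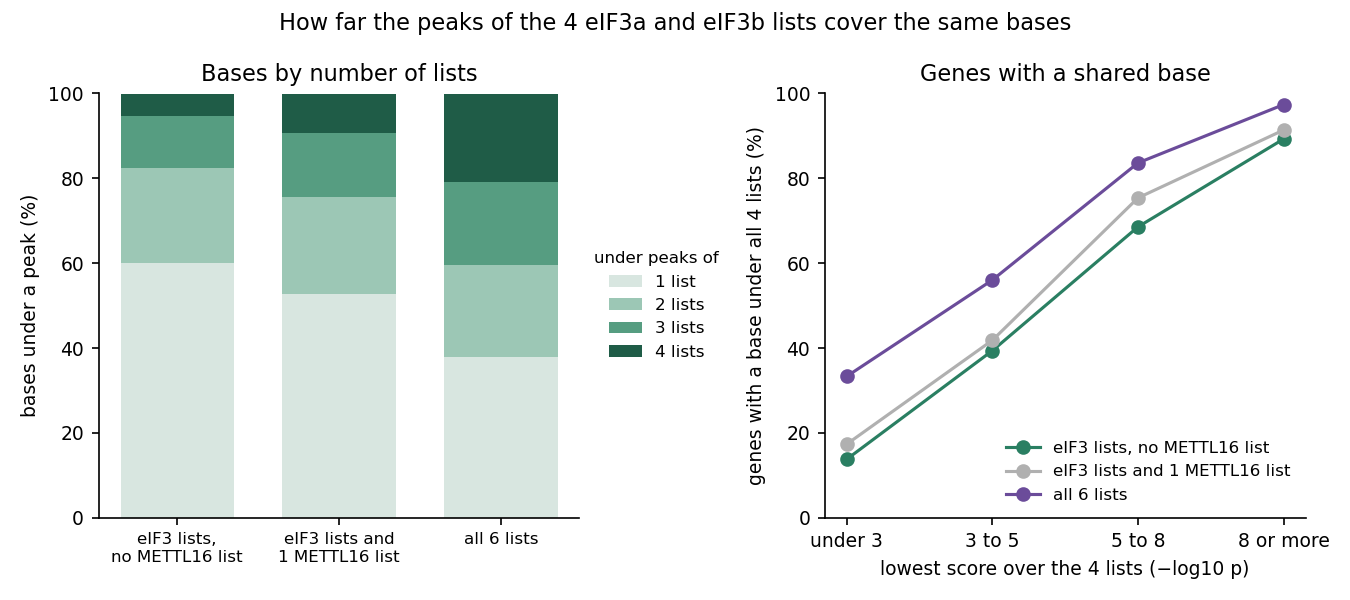
Left, exonic bases under a peak (%, from 0) split by how many of the 4 eIF3a and eIF3b lists cover them, for the 3 gene classes. Right, share of genes (%) with at least 1 base under all 4 lists, by the gene's lowest score over the 4 lists. The genes without METTL16 have 60.2% of bases in 1 list, and every class climbs with score.

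Among single genes, the 12 ranked by the lowest of their 4 scores were IL17RB, NFXL1, ACSM3, TIA1, VPS13A, CEP95, STRN3, CCNT2, ANKRD36, ZNF518A, SMC6 and BIVM. The best peak was coding in all 4 lists for 11 of these, and for 11 a base was shared by all 4. Their coding sequences had 36.2% to 49.1% GC. Scores and folds, each the largest on the gene in a list, are given in the order eIF3a replicate 1, eIF3a replicate 2, eIF3b replicate 1 and eIF3b replicate 2.

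IL17RB (ENSG00000056736), a cytokine receptor on chromosome 3 (53846568 to 53865794, plus strand), had scores of 20.9, 60.3, 19.4 and 24.6 and folds of 2.98, 3.63, 2.38 and 3.37. In both eIF3b lists its best peak lay in the last of 11 exons, from 53864810 and 53864840, whereas in the eIF3a lists it spanned exons 5 to 11 and 3 to 8. NFXL1, a zinc finger protein on chromosome 4, had folds of 4.02, 4.99, 5.05 and 4.98, within a narrow range, and its best peak spanned exons 20 to 23 of 23 in every list, starting earlier in the eIF3a lists. ACSM3, a mitochondrial medium-chain acyl-CoA synthetase, had folds of 5.38, 3.12, 4.18 and 3.85 and 713 bases under all 4 lists.

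TIA1 (ENSG00000116001), an RNA-binding protein of stress granules that represses translation, showed the highest score of the 12 in eIF3b replicate 2. Its scores were 49.6, 16.8, 42.3 and 73.5, and its folds were 9.09, 2.47, 3.75 and 5.69. The best peak reached exon 13 of 13 in every list, from exon 2 in the eIF3a lists and from exon 10 in the eIF3b lists, and 932 bases in 11 stretches were common to all 4. VPS13A, a lipid transfer protein of membrane contact sites, had 14, 9, 9 and 8 peaks along its 72 exons, with folds of 3.52, 2.95, 6.32 and 5.71. Its 1056 shared bases fell into 19 stretches.

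CEP95 had folds of 5.64, 3.09, 3.64 and 4.98, and CCNT2, the cyclin T2 subunit of the elongation factor kinase P-TEFb, had 4.58, 2.82, 4.53 and 7.83. The CCNT2 best peak lay in exon 9 of 9 in 3 lists and in exons 3 to 7 in eIF3a replicate 2. SMC6, of the SMC complex that acts in DNA repair, had folds of 3.03, 2.39, 3.10 and 6.47, and ZNF518A had 6.63, 3.42, 2.83 and 5.69. STRN3 was weakest by fold in eIF3a replicate 2, with 2.44, 1.61, 4.16 and 3.97. BIVM, an immunoglobulin-like motif protein, had nearly equal scores (11.4, 12.8, 11.1 and 11.7) but no base common to the 4 lists, its best peak covering exons 9 to 11, exons 4 to 8, and exon 11 in both eIF3b lists.

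**Figure D5:**
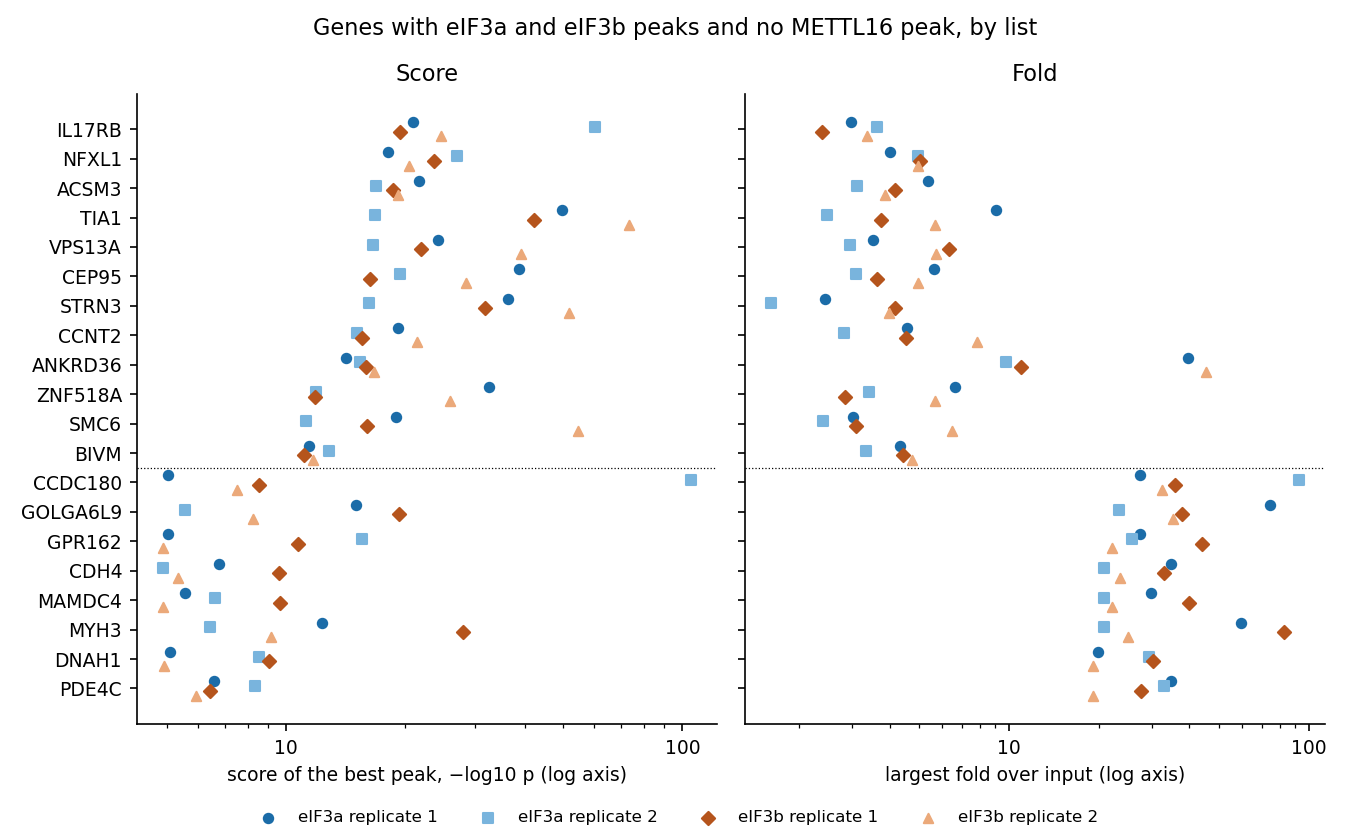
Score of the best peak (−log10 p, log axis) and largest fold over input (log axis) of 20 genes without a METTL16 peak in each eIF3a and eIF3b list (points); the 12 above the dotted line were ranked by lowest score and the 8 below it by lowest fold. The upper genes have lowest scores of 11.1 to 19.4, the lower ones lowest folds of 19.1 to 27.3.

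The 8 further genes ranked by the lowest of their 4 folds were CCDC180, GOLGA6L9, GPR162, CDH4, MAMDC4, MYH3, DNAH1 and PDE4C. They differed from the score-ranked genes in base composition, with coding sequences of 51.3% to 67.0% GC, and several are known from other tissues, such as MYH3 from embryonic muscle, DNAH1 from cilia and CDH4, a cadherin, from brain. MYH3 had folds of 59.5, 20.8, 82.4 and 25.0 with 695 bases in all 4 lists. CCDC180, a coiled-coil protein, had folds of 27.3, 92.6, 35.7 and 32.3, and its score of 105 in eIF3a replicate 2 stood far above 5.03, 8.56 and 7.50 in the others. GPR162, an orphan receptor, had folds of 27.3, 25.7, 43.9 and 22.0. PDE4C, a cyclic AMP phosphodiesterase, had folds of 34.7, 33.0, 27.5 and 19.1, and its best peak was in the 3′ UTR in both replicate 1 lists and coding in both replicate 2 lists. CDH4 peaked in the 3′ UTR in all 4 lists, with folds of 34.7, 20.8, 33.0 and 23.5 and only 1 shared base.

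High folds on these genes often came as repeated values. In eIF3a replicate 1, CCDC180 and GPR162 had the same score of 5.03 and the same fold of 27.3, and in eIF3b replicate 2, GPR162 and MAMDC4, an apical endosomal protein, shared a score of 4.90 and a fold of 22.0. Of the peaks of at least 10-fold on the 446 genes, 81.8%, 56.9%, 75.0% and 78.9% had exactly the score and fold of a peak on another gene of the list, against 48.0%, 32.3%, 24.9% and 49.0% in genes in all 6 lists. Genes with 1 METTL16 list had 75.55%, 45.1%, 52.11% and 70.45%. Repeated values were also common at any fold, in 66.4%, 48.39%, 58.34% and 65.21% of all peaks on the 446 genes, against 39.42%, 28.09%, 28.31% and 36.25% in genes in all 6 lists. The read numbers behind the peaks are not in the lists used here, so their part in these folds was not tested.

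ANKRD36 (folds of 39.7, 9.79, 11.0 and 45.5) and GOLGA6L9 (74.4, 23.3, 37.8 and 35.2) belong to families of near-identical copies, among which reads can be shared or misplaced, so their positions are uncertain. In the AGAP, NBPF, GOLGA6, GOLGA8 and ANKRD36 families, 10 of 26 genes with a peak (38.5%) were among the 446, against 4.12% of all genes. In these families 6 genes were in all 6 lists, against 2730 of all 10830 genes with a peak. None had eIF3a and eIF3b peaks in all 4 lists and exactly 1 METTL16 list, against 809 of all genes. AGAP9 had folds of 52.1, 28.4, 9.61 and 7.0 and AGAP6 of 7.99, 13.5, 4.46 and 19.8. This list was chosen after the members' names had been seen.

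Of the gene lists, that of zinc finger genes with ZNF symbols held the most members, with 26 of 371 (7.01%) among the 446 against 4.12% of all genes with a peak. Of the 125 ZNF genes in all 4 eIF3a and eIF3b lists, 26 were members, against 446 of all 3985 such genes. In 13 of the 26 the best peak was coding in all 4 lists, and the median coding GC content was 41.5%. ZNF407 had folds of 6.02, 13.5, 6.73 and 17.6 and 483 bases in all 4 lists, ZNF83 had 6.43, 3.28, 5.42 and 8.07 with 483, and ZNF207, a spindle assembly protein, had only 2.42, 2.50, 1.36 and 2.31 at scores of 48.9, 54.9, 6.78 and 43.9. A further 59 ZNF genes (15.9%) were in all 6 lists, against 2730 of all 10830 genes with a peak.

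Centrosome and cilium genes, a list again drawn up after the names were seen, gave 14 of 63 (22.2%, against 4.12% of all genes with a peak), with 10 in all 6 lists. The list held symbols of the CEP, IFT, CFAP, BBS and NPHP series and the single genes OFD1, CSPP1, SPICE1 and CLUAP1. Each of these single genes was a member, so the share of members is partly built into the list. The members of this list with the highest lowest score were CEP95, CSPP1, CEP295 and CEP63. The best peak was coding in all 4 lists for 12 of the 14, and the median coding GC content was 42.0%. CEP295, of centriole assembly, had folds of 24.8, 94.2, 5.83 and 15.4 with no base common to the 4 lists, and CEP63 had 3.97, 3.23, 2.3 and 3.34 with 30 common bases. Of 80 coiled-coil CCDC genes, also listed afterwards, 6 (7.50%) were among the 446.

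The counts in the gene lists below are read against the 4.12% of all genes with a peak that were members, and in lists this short a count of 0 is close to that share. That share also counts genes missing from an eIF3a or eIF3b list. Of the 3985 genes in all 4 of these lists, 446 were members. Of all 10830 genes with a peak, 2730 were in all 6 lists. In translation, none of 13 eIF3 subunit genes with a peak was a member, while 3 had peaks in all 6 lists, and none of 39 other initiation factor genes was, with 14 in all 6. EIF3A and EIF3B, which were overexpressed in the eIF3a and eIF3b lines, were among the subunit genes in all 6 lists. What part overexpression had in their peaks was not tested. Among m6A writers, erasers and readers, 1 of 19 (5.26%) was a member, YTHDF2, a cytoplasmic m6A reader that promotes mRNA decay, and 11 were in all 6 lists. YTHDF2 had folds of 1.80, 3.95, 1.35 and 1.71, with a score of 74.1 in eIF3a replicate 2 and 3.62 to 7.60 in the others. Among microRNA silencing and deadenylation genes, 3 of 27 (11.1%) were members. These were CNOT2 and CNOT10, subunits of the CCR4-NOT deadenylase, and PAN3, of the PAN deadenylase, with folds from 2.16 in CNOT10 to 9.31 in CNOT2. No base was common to the 4 lists in any of the 3.

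In protein turnover, 5 of 44 USP proteases (11.4%) were members. The 2 of 59 RNF genes (3.39%) and 3 of 58 F-box and cullin genes (5.17%) were near the share of all genes, and none of 30 UBE2 genes was a member. USP32 had its best peak in the 5′ UTR in all 4 lists, with folds of 19.8, 3.88, 49.4 and 17.6. RNF2, the catalytic ubiquitin ligase of the Polycomb complex, had 1 peak in each list, in the 3′ UTR every time, with folds of 4.51, 3.37, 4.58 and 7.34.

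In membrane traffic, 6 of 127 coat, tether and SNARE genes (4.72%) and 2 of 52 RAB genes (3.85%) were members, both near the share of all genes. RAB5A and RAB5B, small GTPases of early endosomes, differed in position. RAB5B had 3′ UTR best peaks in all 4 lists, with folds of 3.04, 3.57, 2.62 and 1.96. RAB5A had a 3′ UTR best peak in eIF3a replicate 1 and 5′ UTR best peaks in the other 3 lists, with folds of 5.31, 3.85, 10.3 and 13.2 and 90 bases in all 4 lists.

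Among 205 solute carriers, 5 were members (2.44%) and 47 were in all 6 lists. SLC30A10, a manganese exporter of liver cells, had coding best peaks in every list and folds of 3.72, 3.26, 5.03 and 3.96, and SLC2A9, a urate transporter, had 1.92, 2.24, 4.81 and 2.12. Mitochondrial ribosomal proteins gave 2 of 50 (4.0%) and respiratory chain genes 2 of 52 (3.85%), near the share of all genes. Few of these genes were in all 4 eIF3a and eIF3b lists, and of those that were, 2 of 7 and 2 of 4 were members. NDUFV3, a complex I subunit, had 1 peak per list, in the 3′ UTR each time, with folds of 4.81, 3.85, 7.78 and 5.09 and 149 common bases. Cyclin, CDK and replication licensing genes gave 2 of 48 (4.17%), ORC2 of the origin recognition complex and CDK3. Histone lysine methyltransferases and demethylases gave 1 of 35 (2.86%), and 26 of the 35 were in all 4 eIF3a and eIF3b lists. Of 47 splicing factors, 29 liver secreted plasma proteins, and 18 TGF-beta and BMP receptors and SMADs with a peak, none was a member, which at 4.12% of all genes is not far from the background in lists of these sizes.

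Motifs were counted on the transcript strand in the central 100 bases of each peak of at least that width. ACAGAGA, the core of the site in U6 RNA that METTL16 methylates, was rare. It occurred in 11 to 17 windows per list, or 1.71%, 1.95%, 1.43% and 2.14% of those on the 446 genes, against 1.69%, 1.74%, 1.40% and 1.91% of all windows of the same lists. GGACT, a common m6A context, occurred in 11.0%, 11.1%, 11.1% and 7.92%, against 10.1%, 10.6%, 10.9% and 9.73%. The motifs cannot overlap each other. ACAGAGA was slightly more frequent on the 446 genes in each list, but for GGACT the order turned in eIF3b replicate 2, and for both motifs the shares of the 4 lists overlapped with those of all windows.

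The edge of the selection was close. PCDHGB3, PLEKHH2 and PIK3R4 were just inside, with lowest scores of 2.11, 2.11 and 2.22. Just outside on the METTL16 side, FCHO2 and MICAL1 each had 1 peak in METTL16 replicate 1 with a score of 2.34, and ACAD10 had 1 in METTL16 replicate 2 with 2.38. Just outside on the eIF3 side, USP1, MSANTD4 and VMP1 lacked a peak only in eIF3a replicate 2, although their scores in the other lists reached 40.5, 19.5 and 23.7. In all, 678 genes had peaks in 3 of the 4 lists and no METTL16 list, and 390 of these were missing from eIF3a replicate 2.

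Absence was also judged by position. No peak of either METTL16 list, under any gene name, overlapped an eIF3a or eIF3b peak of the 446 genes on the same strand. The number of genes depended on list length, since METTL16 had 13199 and 13136 peaks against 21733, 12921, 20832 and 20027 for eIF3a and eIF3b. With the 12921 peaks of smallest p-value from every list, 199 genes met the rule, 190 of them among the 446. With 5000 peaks from every list, 133 genes met it, of which 8 were among the 446.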

How the data were processed

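RIP samples were sequenced on a NovaSeq, mapped to GRCh38 with STAR, and peaks of RIP over input were called with exomePeak at default parameters, one list per RIP sample (6 lists). Versions, the annotation and the pairing with inputs are not given in the sources used here. The authors deposited for each peak its exonic blocks, gene name, p-value, the log10 of the p-value (used as a score, with its sign turned) and a fold enrichment, a ratio of RIP to input. No read counts were used, so the depth behind a peak is unknown. The 6 inputs entered only through the peak calling.

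Gene names were matched to GENCODE release 44 by current symbol (431 of 446) or through older RefSeq symbols (14), and 1 was not matched. Exonic bases were called 5′ UTR, coding or 3′ UTR by the canonical transcript first. In each eIF3a and eIF3b list, values on the genes were compared with those on genes in all 6 lists, and the 4 differences were tested with an exact two-sided permutation of signs (16 patterns), with Benjamini-Hochberg adjustment over 3 measures. Genes were named by rank of the lowest score (12), then of the lowest fold (8), by fixed gene lists (at most 4 each) and at the edges of the rule (3 each). Y-linked genes were not named. The members and lists were chosen with earlier results of these data known, and 3 lists after the members' names were seen. Functions were tested on simulated lists. Python 3.11.15, pandas 2.3.3 and pysam 0.24.0 were used. Some items are not reported here.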

Additional observations from a re-analysis of the deposited data

How the results depend on the processing

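The number of genes meeting the rule depended on the processing. It was 446 as reported, 380 with eIF3a and eIF3b peaks of at least 2-fold, 125 at 4-fold, 199 with lists of equal length, 133 with 5000 peaks per list, 513 with absence judged by position and 445 with current symbols. Leaving out 1 list gave 504 to 990 genes, with the most moved by METTL16 replicate 1 (990), METTL16 replicate 2 (711) and eIF3a replicate 2 (836). Since the rule asks for all 4 lists and neither of 2, fewer lists can only add genes.

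The mean coding, 3′ UTR and GC differences between these genes and genes in all 6 lists kept their direction under every alternative tried. In each alternative the genes were those of the full rule and its classes, or a part of them in the score ranges. The differences were not recomputed for the gene sets of other sizes given above. Beyond leaving out lists, the coding difference ranged from 9.18 to 29.0 points, the 3′ UTR difference from -15.1 to -10.6 and the GC difference from -11.1 to -1.05, the last against genes with 1 METTL16 list. Without 1 eIF3a or eIF3b list, and with the genes unchanged, they were 11.6 to 16.3, -16.7 to -12.1 and -8.05 to -7.13. With 4 lists no p can go under 0.125, and with 3 none under 0.25, so a kept p says nothing of stability. The score ranges were chosen after seeing the data.

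With the replicate numbers as a block, that is only the pairs of eIF3a and eIF3b lists with the same number, the Jaccard index was 0.216 against 0.228. Over the 446 genes, the replicate differences in log2 largest fold of the 2 proteins correlated at -0.00503. This value cannot show whether samples of the same number were handled together, and the sample titles do not say. Leaving out 1 list gave 0.167 to 0.290, and peaks of at least 2-fold 0.217. Depth could not be assessed, and a gene absent from a list may lie just under its threshold.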
